A study of Mus musculus with 48 samples.

Results

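Car4, Krt79, Krt19, Ear1, Ear2, Plet1, Cidec and Atp6v0d2 are 8 genes used as markers of resident alveolar macrophages, and they were followed by name through a gene table of airspace macrophages from mice given bleomycin. All 8 of the 24411 genes in the table that carry these names were found, and all 8 were among the 12634 genes with enough counts to be tested. The genes were proposed as a set lost at day 7 and back by day 21, with earlier results of these data known. The values below go against a common return. At day 21 in wild type mice Atp6v0d2 was back at its naive level. Krt79, Krt19, Ear1, Ear2 and Cidec were then still 2.67-fold to 14.9-fold lower in wild type mice. Car4 was not called lower at any time.

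RNA was measured in macrophages from bronchoalveolar lavage (BAL) of 24 male mice, 12 labelled Wild Type (WT) and 12 labelled Siglec F KO (knockout, KO). Siglec-F, the product of Siglecf, is a sialic acid-binding receptor on alveolar macrophages and eosinophils. Naive mice are labelled Naïve in their titles, Saline Control as the treatment and Day 0 as the time, and the other mice received bleomycin at 2.5 units/kg, given IT, and were sampled at day 7, 14 or 21. Each of the 8 groups held 3 mice. The labels give neither the background strain, nor the ages, nor how the knockout was made, nor how macrophages were separated from other lavage cells.

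Alveolar macrophages live on the airway side of the alveolar wall, take up and break down surfactant, and renew themselves in the healthy lung with little input from blood. Bleomycin injures the lung, and blood monocytes then enter the airspace and become macrophages that gain the resident program only with time. Car4 encodes a membrane-anchored carbonic anhydrase, Krt79 and Krt19 encode keratins of the type II and type I families, and Ear1 and Ear2 encode secreted ribonucleases of the eosinophil-associated family. Plet1 encodes a surface protein first described in placenta, Cidec a lipid droplet protein that lets droplets grow, and Atp6v0d2 a d subunit of the proton pump V-ATPase. On GRCm38, which mm10 stands for, GENCODE M21 places Car4 at chr11:84957786-84966044 and Krt19 at chr11:100140810-100148665. It places Krt79 at chr15:101929332-101940324, Plet1 at chr9:50494525-50505482, Cidec at chr6:113424634-113435760 and Atp6v0d2 at chr4:19876841-19922605. All 8 are protein-coding.

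Ear1 and Ear2 have nearly the same upstream sequence, and both fell at day 7, by different amounts. Cidec and Plet1 fell by very different amounts, and Car4 was not called lower. The stretches upstream of these 5 genes are shown. Each is the 250 bases before the annotated RefSeq start on GRCm38.p6, read 5′ to 3′ on the gene's strand. Capitals mark matches to 6 motifs searched on both strands, and lower case is the rest. The RefSeq table matched 6 of the 8 genes, and Krt19 and Atp6v0d2 had no entry. The windows are Ear1 chr14:43819640-43819889 (minus strand), Ear2 chr14:44102404-44102653 (plus strand), the second annotated start of Cidec at chr6:113434765-113435014 (minus strand), Plet1 chr9:50494275-50494524 (plus strand) and Car4 chr11:84957504-84957753 (plus strand).
Ear1: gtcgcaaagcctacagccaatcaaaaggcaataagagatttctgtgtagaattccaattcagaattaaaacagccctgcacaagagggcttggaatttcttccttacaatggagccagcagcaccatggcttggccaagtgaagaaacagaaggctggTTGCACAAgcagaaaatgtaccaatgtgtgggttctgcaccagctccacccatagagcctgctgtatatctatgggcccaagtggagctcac
Ear2: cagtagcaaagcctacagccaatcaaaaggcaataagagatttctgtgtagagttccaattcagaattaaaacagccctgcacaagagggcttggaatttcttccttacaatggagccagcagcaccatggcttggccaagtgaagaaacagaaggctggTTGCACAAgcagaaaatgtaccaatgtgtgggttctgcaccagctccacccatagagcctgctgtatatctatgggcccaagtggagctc
Cidec: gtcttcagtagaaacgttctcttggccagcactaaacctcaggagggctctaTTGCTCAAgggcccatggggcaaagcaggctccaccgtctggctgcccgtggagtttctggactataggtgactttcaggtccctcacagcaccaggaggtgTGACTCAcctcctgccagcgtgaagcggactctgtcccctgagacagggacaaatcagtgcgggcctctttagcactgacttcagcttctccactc
Plet1: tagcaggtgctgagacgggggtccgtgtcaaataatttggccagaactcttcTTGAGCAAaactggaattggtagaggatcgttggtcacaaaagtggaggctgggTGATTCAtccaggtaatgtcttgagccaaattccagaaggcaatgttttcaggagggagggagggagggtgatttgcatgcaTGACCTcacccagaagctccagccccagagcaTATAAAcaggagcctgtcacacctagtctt
Car4: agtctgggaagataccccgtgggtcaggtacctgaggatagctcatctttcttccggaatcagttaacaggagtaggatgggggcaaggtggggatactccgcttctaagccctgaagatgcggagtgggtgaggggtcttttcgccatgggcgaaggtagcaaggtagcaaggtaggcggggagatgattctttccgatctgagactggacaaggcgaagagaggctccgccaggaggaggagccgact

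The Ear1 and Ear2 stretches aligned with 246 identical bases, 2 mismatches and 4 gapped bases, and each holds a C/EBP-type match, TTGCACAA, 92 to 85 bases before the Ear1 start and 90 to 83 bases before the Ear2 start. The same pattern, TTGCNNAA, was matched by TTGCTCAA 198 to 191 bases before the second Cidec start and, on the opposite strand, by TTGAGCAA at the same distance in Plet1. It occurs in 9.56% of the 32851 RefSeq upstream windows. The AP-1 pattern TGANTCA (6.75% of windows) matched in Cidec and Plet1, and the nuclear receptor core site AGGTCA (14.0%) and TATAAA (12.4%) matched in Plet1. No match to the PU.1 core GAGGAAG (10.6%) or the E-box CACGTG (6.02%) was found in these windows. The windows before the first annotated Cidec start and before Krt79, not shown, held none of the 6 motifs. A match is a run of letters and says nothing of binding.

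Totals ran from 24877049 to 47457085 counts per mouse. Levels are in CPM, each library's counts scaled to a common total after TMM scaling, and the lowest count behind any level of the 8 genes was 124, for Krt79 in a KO mouse at day 21. Siglecf was 434.3 ± 40.9 CPM (SD, n = 3) in naive WT mice and at most 0.577 CPM in every KO mouse. Of the 14 resident markers none was at 0 in any group, and their summed level was 25310 to 32513 CPM in naive WT mice. Recruited macrophage markers (12 genes, among them Ccr2, Ly6c2, C1qa and Apoe) summed to 184 to 232 CPM in all naive mice and to 1431 to 8497 CPM in all mice given bleomycin. Eosinophils also use Ear genes and Siglec-F, and 6 eosinophil markers summed to at most 7.31 CPM in any mouse, with the eosinophil peroxidase gene Epx at 0 counts in 6 of the 8 groups. Epithelial markers matter for the keratins: their sum, which was nearly all Epcam in naive mice (127 ± 16.1 CPM in WT), was 51.7 to 144 CPM in naive mice and 21.7 to 162 CPM after bleomycin. A bulk sample does not tell fewer resident cells apart from less RNA per cell.

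Libraries of 1 group stood apart from each other in the later KO groups, and this touches every result there. WT mice at day 14 also spread, from 8.92 to 94.9 CPM for Krt79 and from 30.5 to 126 CPM for Ear1. At day 21, KO mouse 1 held Krt79, Krt19, Ear1 and Cidec at 55.3 to 91.1% of the naive KO mean, while the other two mice of that group held them at 0.804 to 15.6%. At day 14, KO mice 2 and 3 were above KO mouse 1 for all 8 genes. For the 8 genes and the gene Bhlhe41, values without the mouse concerned are given beside the results that it moves. For the other genes of the lists below such values were not computed. Over all genes, 870 were called lower in KO mice at day 21 against naive, and 1523 without KO mouse 1.

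**Figure D1:**
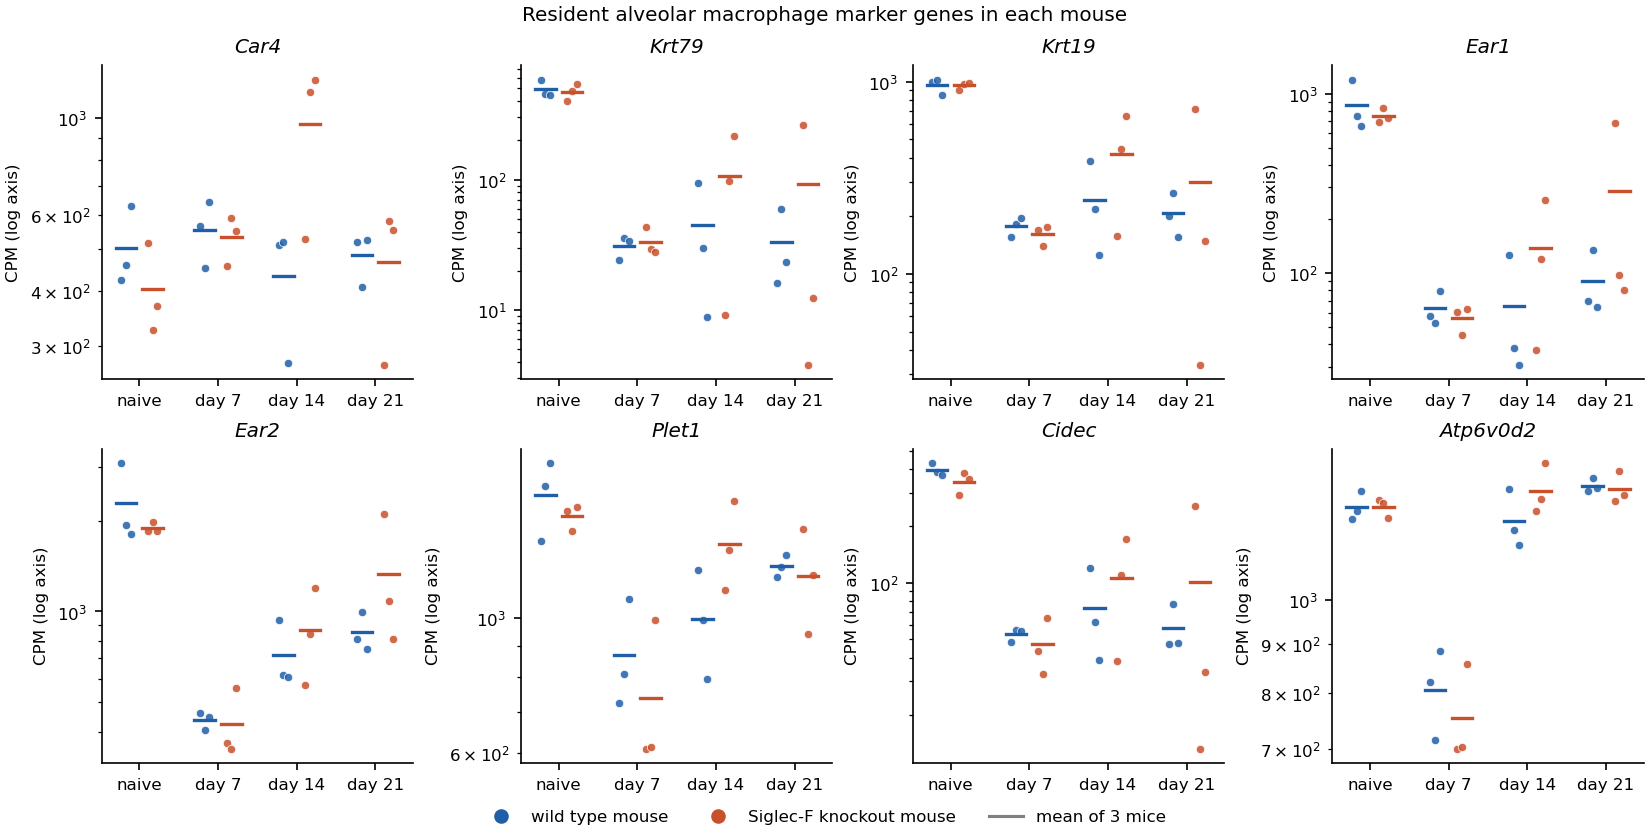
Level of each of the 8 genes in each mouse, in CPM on a log axis, for naive mice and days 7, 14 and 21 after bleomycin; points are mice and lines are means of 3. Krt79, Krt19, Ear1 and Cidec drop at day 7 in both genotypes and spread widely in KO mice at days 14 and 21, from 3.79 to 261 CPM for Krt79 at day 21, while Car4 stays between 270.4 and 1228 CPM throughout.

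At day 7 the genes lost most were the keratin gene Krt79 and the ribonuclease gene Ear1, followed by Cidec, Krt19 and Ear2. Per kilobase of exon, which lets genes be compared, naive WT levels ran from 3169 CPM per kb for Ear2, 1190 for Ear1 and 815 for Plet1 to 213 for Cidec and 103 for Krt79. By the edgeR quasi-likelihood test with Benjamini-Hochberg adjustment, 7 of the 8 genes were lower at day 7 in WT mice, where 15.3% of all genes tested were called lower. The same 7 genes were lower at day 7 in KO mice, where the share over all genes was 14.4%. The exception in both was Car4. The median log2 fold change of the 8 genes was -2.41 in WT and -2.36 in KO mice, and that of all genes tested was 0.02 in each.

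Krt79 was 583, 449 and 443 CPM in the naive WT mice and 24.2, 35.5 and 33.8 CPM at day 7. The highest mouse at day 7 lay far below the lowest naive mouse, and the fall was 3.98 on the log2 scale (log2 fold change -3.98, SE 1.15, 95% interval -6.37 to -1.59, adjusted p = 0.0103). In KO mice Krt79 went from 397, 478 and 538 to 43.1, 29.4 and 28.0 CPM, a log2 fold change of -3.81 (SE 1.14, adjusted p = 0.0131). Its SE, which draws on the spread in all 8 groups, is the widest of the 8 genes. Without KO mouse 2 of day 7 the KO value had an adjusted p of 0.0503.

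Krt19, the smallest type I keratin and a common epithelial marker, was 1001, 1026 and 856 CPM in naive WT mice and 155, 181 and 196 CPM at day 7. The groups did not overlap, and the log2 fold change was -2.44 (SE 0.67, adjusted p = 0.00722). In KO mice the naive values were 907, 975 and 986 CPM and the day 7 values 168, 139.9 and 176 CPM, a log2 fold change of -2.57 (SE 0.67, adjusted p = 0.00536). Epcam fell beside it, from 127 ± 16.1 to 22.9 ± 6.75 CPM in WT mice, while the surfactant gene Sftpc went from 0.339 ± 0.149 to 28.9 ± 48.8 CPM, with 85.3 CPM in 1 mouse. The 14 epithelial markers summed to 162 CPM in WT mouse 3 of day 7, above every naive WT mouse (112 to 141 CPM), and to 22.2 and 27.9 CPM in the other two mice of that group. The part of other cells in the keratin values was not tested.

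Ear1 was 1198, 746 and 661 CPM in naive WT mice and 57.6, 52.8 and 79.5 CPM at day 7, 13.7-fold lower (log2 fold change -3.78, SE 0.75, adjusted p = 0.000547). In KO mice it went from 691, 830.0 and 731 to 60.2, 45.1 and 63.2 CPM, 13.4-fold lower. Every day 7 mouse was below every naive mouse of its genotype. Ear2 started higher, at 3092, 1934 and 1810.2 CPM in naive WT mice, and stood at 460.3, 406 and 448 CPM at day 7. It was 5.20-fold lower in WT (log2 fold change -2.38, SE 0.31, adjusted p = 8.2e-06) and 4.44-fold lower in KO mice, which went from 1854, 1979 and 1840.1 to 368, 351 and 558 CPM.

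The lipid droplet gene Cidec was 429, 385 and 371 CPM in naive WT mice and 48.8, 56.5 and 55.6 CPM at day 7. These groups did not overlap, and the log2 fold change was -2.88 (SE 0.71, adjusted p = 0.00348). KO mice went from 292, 381 and 355 to 43.2, 32.7 and 65.2 CPM, with a log2 fold change of -2.86 (SE 0.71, adjusted p = 0.00374).

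Plet1 and Atp6v0d2 fell much less. Plet1 was 1334, 1641 and 1788 CPM in naive WT mice and 726, 808 and 1072 CPM at day 7, a log2 fold change of -0.87 (SE 0.20, adjusted p = 0.00175). In KO mice it was 1497, 1386 and 1516 CPM naive and 609.8, 614 and 993 CPM at day 7 (log2 fold change -0.99, adjusted p = 0.000596). Atp6v0d2, in osteoclasts a subunit known for its part in cell fusion, was 1214, 1236 and 1296 CPM in naive WT mice and 822, 715 and 884 CPM at day 7. Its log2 fold change of -0.63 had the smallest SE of the 8 genes (0.09) and was called (adjusted p = 2e-05), and in KO mice the values went from 1268, 1261 and 1217 to 699.9, 703 and 858 CPM (log2 fold change -0.73, adjusted p = 3.8e-06).

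Car4, often used to tell resident alveolar macrophages from recruited cells, was 425, 459 and 629 CPM in naive WT mice and 566, 453 and 643 CPM at day 7. The groups overlapped, and the log2 fold change was 0.13 (95% interval -0.50 to 0.77, adjusted p = 0.766). In KO mice it was 516, 325 and 371 CPM naive and 457, 590.5 and 552 CPM at day 7 (log2 fold change 0.40, 95% interval -0.23 to 1.03, adjusted p = 0.328). Both intervals exclude a fall of the size seen in Krt79, Krt19, Ear1, Ear2 or Cidec, whose estimates at day 7 were -2.15 or lower.

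**Figure D2:**
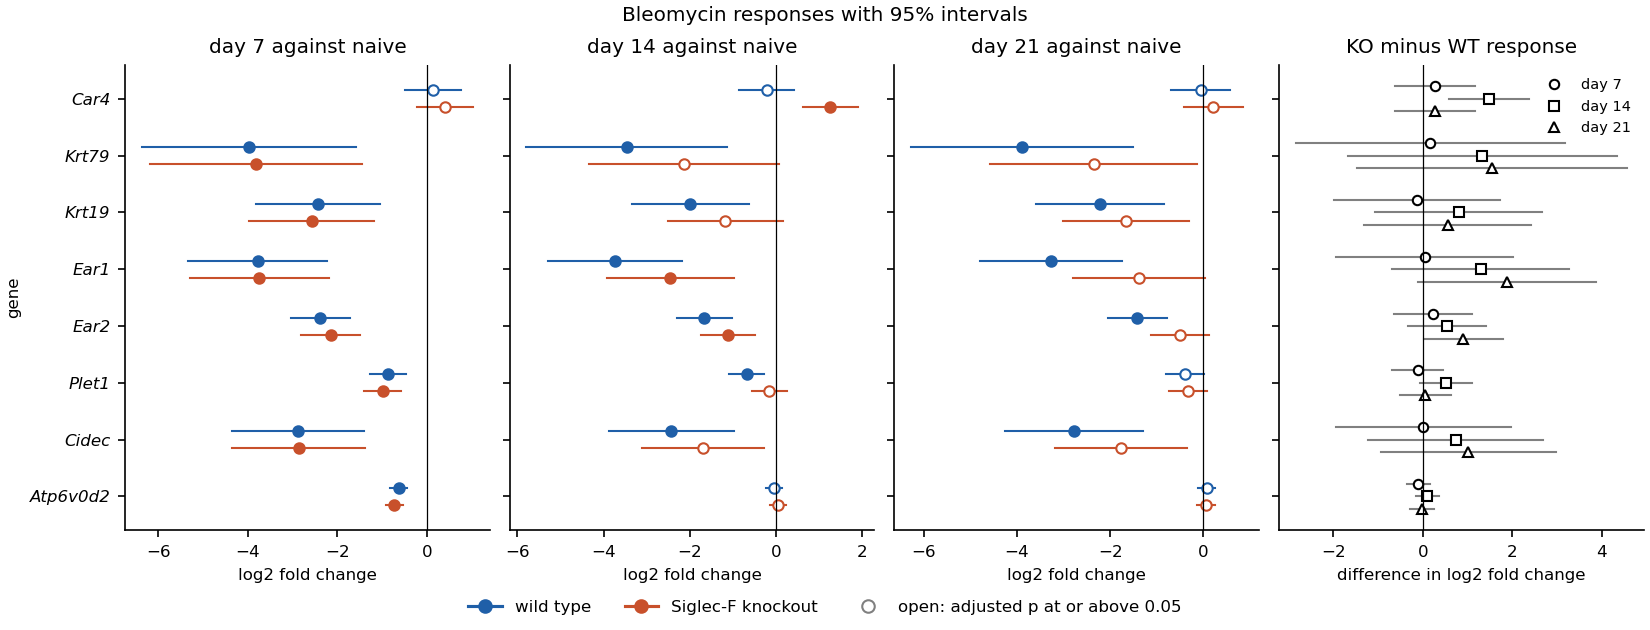
Log2 fold change of each gene against naive mice of the same genotype at days 7, 14 and 21, with 95% intervals, and the KO minus WT difference of these responses in the last panel; filled symbols have an adjusted p under 0.05. Car4 is the single gene near 0 at day 7, Atp6v0d2 and Plet1 shift by less than 1 on the log2 scale, and none of the differences between genotypes is filled.

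At day 14 WT mice still had low levels of 6 of the 8 genes, against 13.4% of all genes called lower. Krt79 was 94.9, 29.9 and 8.92 CPM (log2 fold change -3.46, SE 1.12, adjusted p = 0.0227), and Krt19 was 387, 216 and 125 CPM (log2 fold change -1.98, SE 0.66, adjusted p = 0.0256). Ear1 was 126, 38.3 and 30.5 CPM, 13.3-fold below naive, and Ear2 was 941, 614 and 606 CPM, 3.16-fold below naive. In each of these genes mouse 1 was the highest and mouse 3 the lowest. Cidec stood at 119.6, 62.0 and 39.1 CPM (log2 fold change -2.42, adjusted p = 0.0115) and Plet1 at 1196, 992 and 795 CPM (log2 fold change -0.68, adjusted p = 0.0121), in the same order of mice. Without WT mouse 3 of day 14 the count of lower genes was 2, Ear1 and Ear2. Without WT mouse 2 of day 14 Krt79 and Krt19 had adjusted p of 0.0822 and 0.0795, and without naive WT mouse 2 or 3 the calls of Krt19 (adjusted p = 0.052) and Plet1 (adjusted p = 0.0582) were lost. Atp6v0d2 was at 1303, 1182 and 1139.7 CPM, with 1 mouse above and 2 below the naive mice (log2 fold change -0.05, 95% interval -0.24 to 0.14), and Car4 was at 512, 518 and 274 CPM (log2 fold change -0.21, adjusted p = 0.636).

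In KO mice at day 14 Ear1 and Ear2 were lower and Car4 was higher, and the other genes did not pass the test. Over all genes 4.84% were called lower and 12% higher. Car4 was 527, 1150.3 and 1228 CPM, all above the highest naive KO mouse at 516 CPM, and was 2.40-fold higher (log2 fold change 1.26, SE 0.31, adjusted p = 0.00695). Its adjusted p was 0.00019 to 0.045 over all alternatives run, those that left out a mouse included. Ear1 was 37.3, 120.3 and 255 CPM (log2 fold change -2.45, SE 0.71, adjusted p = 0.0202) and Ear2 was 571, 842 and 1199 CPM (log2 fold change -1.12, SE 0.30, adjusted p = 0.0137). Without KO mouse 1 of day 14 neither was called, with adjusted p of 0.097 for Ear1 and 0.09 for Ear2, and Car4 alone of the 8 genes was called. Ear1 also lost its call without KO mouse 2 of day 14 (adjusted p = 0.0756) or naive KO mouse 2 (adjusted p = 0.0525).

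The remaining genes at day 14 in KO mice lay below naive levels in part. Krt79 was 9.13, 98.3 and 214 CPM and Krt19 156, 445.7 and 664 CPM, with no mouse reaching the naive range and adjusted p of 0.182 and 0.229. Cidec was 38.4, 109.6 and 170.0 CPM (log2 fold change -1.69, adjusted p = 0.0953). An edgeR model of the compared groups alone did call Cidec lower (adjusted p = 0.0343). Plet1 at 1111, 1291 and 1553 CPM overlapped the naive mice (log2 fold change -0.15, adjusted p = 0.658), as did Atp6v0d2 at 1235, 1273 and 1386 CPM (log2 fold change 0.06, adjusted p = 0.738).

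At day 21 WT mice had 5 genes lower than naive, the keratins, the ribonucleases and Cidec, where 13.7% of all genes were called lower. Krt79 was 16.1, 59.5 and 23.5 CPM, 14.9-fold below naive (adjusted p = 0.0128). Krt19 was 199, 264 and 156 CPM, 4.66-fold below naive (adjusted p = 0.0139). Cidec was 47.5, 76.9 and 48.1 CPM, 6.87-fold below naive (adjusted p = 0.00513). None of the 3 mice had more than 27.4% of the naive mean of these 3 genes. Ear1 was 70.0, 135 and 64.8 CPM, 9.67-fold below naive (adjusted p = 0.00186), and Ear2 was 814, 997 and 753 CPM, 2.67-fold below naive (adjusted p = 0.00136). Ear2 had the highest level of these 5 in percent of naive, with a mean of 37.5%. Without WT mouse 3 of day 21 the count was 3, since Krt79 and Krt19 had adjusted p of 0.0568 and 0.062, and Krt79 also missed the threshold without WT mouse 1 (adjusted p = 0.0585).

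Plet1 and Atp6v0d2 parted from these 5 at day 21 in WT mice. Plet1 was 1166, 1212 and 1269 CPM, below all naive mice but not called (log2 fold change -0.39, 95% interval -0.79 to 0.02, adjusted p = 0.138). An edgeR model of the compared groups alone did call it lower (adjusted p = 0.047). Atp6v0d2 was 1297, 1337 and 1306 CPM, at or above the naive mice (log2 fold change 0.07, 95% interval -0.11 to 0.26). Car4 was 519.1, 409.7 and 524.3 CPM (log2 fold change -0.06, 95% interval -0.69 to 0.57).

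In KO mice at day 21 none of the 8 genes was called by edgeR, where 6.89% of all genes were called lower, and 3 had an unadjusted p under 0.05. DESeq2 called 2 of them lower and limma-voom 4. For Krt79, Krt19, Ear1 and Cidec the 3 mice differed more within this group than in any other. Krt79 was 261, 3.79 and 12.4 CPM and Krt19 721, 33.4 and 149 CPM. Ear1 was 684, 96.7 and 80.0 CPM and Cidec 256, 13.1 and 33.6 CPM. Mouse 1 was the high one each time, at 55.3% of the naive mean for Krt79 and 91.1% for Ear1. Ear2 was 2107, 1080.2 and 808 CPM, with mouse 1 above all naive KO mice.

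Without KO mouse 1 of day 21, 5 genes were called lower in this group. The log2 fold change was then -5.85 for Krt79 (adjusted p = 0.00039), -3.87 for Cidec (adjusted p = 2.5e-05), -3.39 for Krt19 (adjusted p = 0.00015), -3.09 for Ear1 (adjusted p = 0.00098) and -1.003 for Ear2 (adjusted p = 0.01). With all 3 mice these values were -2.35, -1.76, -1.67, -1.39 and -0.51. Plet1 (1395, 939.5 and 1173 CPM), Atp6v0d2 (1267, 1360.0 and 1284 CPM) and Car4 (270.4, 579 and 552 CPM) overlapped the naive KO mice. Car4 ran against the other genes here: mouse 1, which had the highest Krt79, had the lowest Car4.

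**Figure D3:**
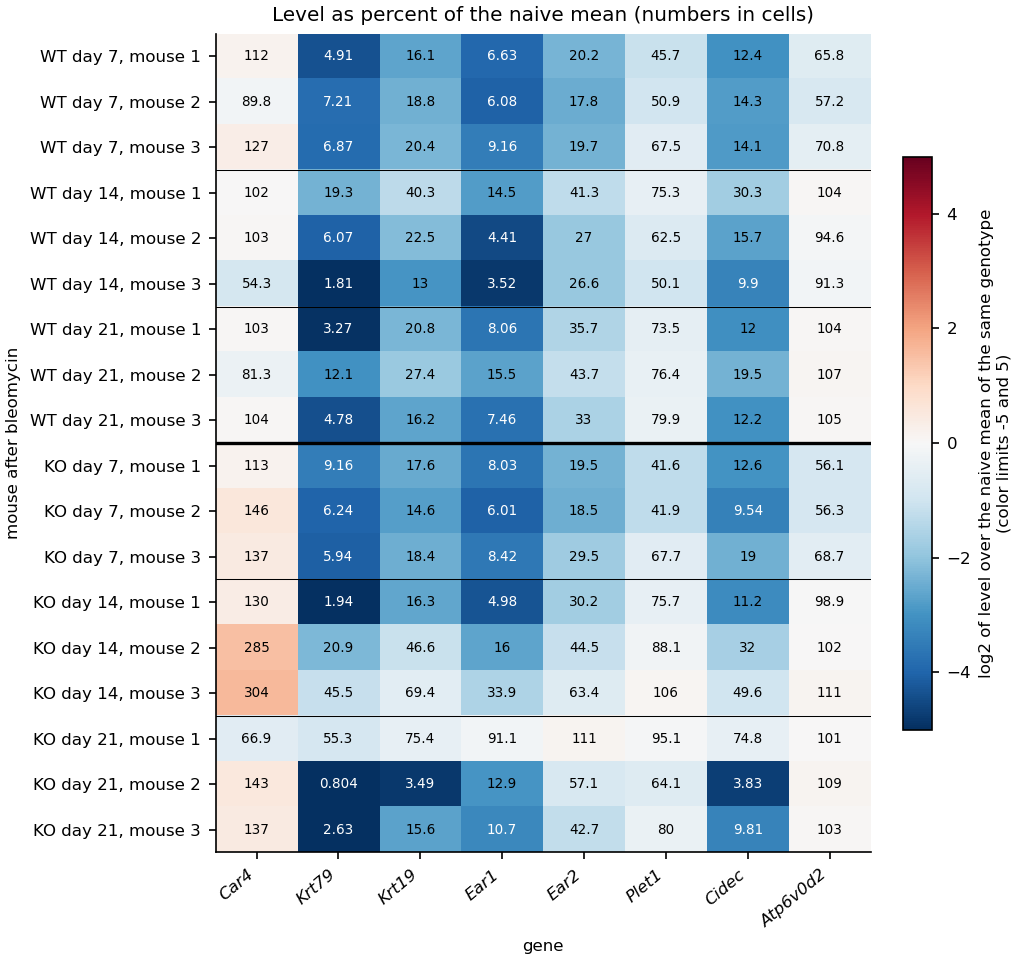
Level of each gene in each mouse given bleomycin, in percent of the naive mean of the same genotype (number in the cell; color on a log2 scale with limits at -5 and 5). Columns are genes and rows are mice. KO day 21 mouse 1 reads from 55.3% for Krt79 to 111% for Ear2, while KO day 21 mouse 2 reads 0.804% for Krt79.

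Whether the genes came back was read from day 21 against day 7, a comparison that shares its day 7 and day 21 mice with those above. In WT mice 2 genes were higher at day 21 than at day 7, where 5.49% of all genes were called higher. Atp6v0d2 was 1.63-fold higher (log2 fold change 0.70, SE 0.09, adjusted p = 5.5e-05) and Ear2 1.95-fold higher (log2 fold change 0.96, SE 0.30, adjusted p = 0.0418). The Ear2 call was lost when any 1 of the 6 mice was left out, with adjusted p from 0.066 to 0.14. Plet1 was 1.40-fold higher with no overlap between the days (adjusted p = 0.115). For Krt79, Krt19, Ear1 and Cidec the days overlapped and the log2 differences were 0.08, 0.22, 0.50 and 0.10. The intervals, -2.07 to 2.24 for Krt79 and -1.29 to 1.49 for Cidec, leave room for a change of several fold in either direction. Their widths use the spread of each gene over all 8 groups, the KO groups included.

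In KO mice 4 genes were higher at day 21 than at day 7, where 7.16% of all genes were called higher. Atp6v0d2 was 1.73-fold higher (log2 fold change 0.79, adjusted p = 1.3e-05) and Ear2 3.13-fold higher (log2 fold change 1.65, SE 0.31, adjusted p = 0.00108). Ear1 was 5.11-fold higher (log2 fold change 2.35, SE 0.71, adjusted p = 0.028) and Plet1 1.58-fold higher (log2 fold change 0.66, SE 0.20, adjusted p = 0.0267). Ear1 rested on KO mouse 1: without it the log2 fold change was 0.65 (adjusted p = 0.5), and Plet1 then had 0.51 (adjusted p = 0.12). The Ear1 call was also lost without any 1 of the 3 mice of day 7 (adjusted p from 0.0613 to 0.0985) and by limma-voom (adjusted p = 0.0997), and the Plet1 call without mouse 1 or 2 of day 7 or mouse 3 of day 21 (adjusted p from 0.0613 to 0.149). A model of these groups alone called Atp6v0d2 only. Krt79, Krt19 and Cidec had log2 differences of 1.46, 0.90 and 1.10, with adjusted p from 0.296 to 0.382, and without KO mouse 1 Krt79 and Cidec turned to -2.04 and -1.01 and Krt19 to -0.82.

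The study compared the genotypes to ask what Siglec-F contributes, and none of the 8 genes was called between KO and WT mice at any time. Over all genes the share called either way was 0.546% in naive mice, 0.00792% at day 7, 0.135% at day 14 and 0.095% at day 21. In naive mice the log2 difference farthest from 0 was -0.32, for Car4, with adjusted p from 0.924 to 1, and none had an unadjusted p under 0.05. At day 7 the widest difference was -0.23, for Plet1. The 95% interval at day 7 was -0.29 to 0.09 for Atp6v0d2 but -2.04 to 2.25 for Krt79. These widths use the spread of each gene over all 8 groups. The day 7 mice themselves held 24.2 to 35.5 CPM of Krt79 in WT and 28.0 to 43.1 CPM in KO.

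At day 14 all 8 differences lay above 0, with a median of 0.66 beside 0.00 for all genes. The 3 KO mice had 527, 1150.3 and 1228 CPM of Car4 and the 3 WT mice 512, 518 and 274 CPM, with no overlap and a log2 difference of 1.16 (SE 0.31, adjusted p = 0.152). DESeq2 called this difference (adjusted p = 0.016), as did edgeR without KO mouse 1 of day 14 (log2 difference 1.45, adjusted p = 0.016). It was the single gene of the 8 with an unadjusted p under 0.05 at day 14, and without KO mouse 3 its log2 difference was 0.95 (adjusted p = 0.734). Krt79, Ear1 and Krt19 had log2 differences of 1.27, 1.08 and 0.80 with overlapping mice and adjusted p from 0.651 to 0.756. Without KO mouse 3 of day 14 these were 0.27, 0.28 and 0.31, Cidec went from 0.53 to 0.01 and Ear2 from 0.27 to -0.03. Without WT mouse 1 of day 14 Krt79, Ear1, Krt19 and Cidec had 2.48, 2.00, 1.30 and 1.07. At day 21 the log2 differences were 1.68 for Ear1 (adjusted p = 0.418), 1.48 for Krt79 (adjusted p = 0.71), 0.81 for Cidec and 0.64 for Ear2 (adjusted p = 0.496), all with overlap between genotypes. These rested on KO mouse 1 of day 21: without it they were -0.02 for Ear1, -2.02 for Krt79, -1.29 for Cidec and 0.14 for Ear2, and Krt19 went from 0.55 to -1.18.

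The bleomycin response itself was compared between genotypes with an interaction term, and no member of the set was called by edgeR at day 7, 14 or 21, nor in the change from day 7 to day 21. Over all genes 0.00792%, 0.332%, 0.332% and 0% were called. The response of Car4 at day 14 was 1.48 higher on the log2 scale in KO than in WT mice (SE 0.43, 95% interval 0.58 to 2.37, adjusted p = 0.156). DESeq2 called it (adjusted p = 0.03), as did edgeR without KO mouse 1 of day 14 (adjusted p = 0.022). At day 21 the difference in response was 1.89 for Ear1 (95% interval -0.10 to 3.87) and 0.91 for Ear2 (95% interval 0.03 to 1.79), with adjusted p of 0.493 and 0.442. Without KO mouse 1 of day 21 these were 0.19 and 0.41, and the differences in response of Krt79, Krt19 and Cidec, 1.54, 0.55 and 1.02 with all mice, were -1.96, -1.17 and -1.09. In the change from day 7 to day 21 all 8 differences were above 0, with adjusted p of 1 and none with an unadjusted p under 0.05. Without KO mouse 1 of day 21 Krt79, Cidec and Krt19 had -2.12, -1.11 and -1.04, Car4 was at -0.18 without KO mouse 2 of day 21, and Plet1 at -0.0054 without WT mouse 3 of day 7. So the 4 genes called from day 7 to day 21 in KO mice and 2 in WT mice were not shown to differ between the genotypes.

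Among mice of 1 group, the genes' mean log2 level and the recruited macrophage markers were often in opposite order. The log2 level was taken on CPM plus 1. In KO mice at day 14 the mean log2 difference of the 8 genes from naive was -2.16, -0.92 and -0.37 in mice 1, 2 and 3, and the summed recruited markers were 4360, 2880 and 1431 CPM. At day 21 these were -0.28, -2.47 and -1.92 beside 1612, 6315 and 3647 CPM. In WT mice at day 14 they were -1.20, -1.97 and -2.55 beside 4982, 6340 and 8497 CPM. In each of these groups the mouse with the least recruited marker RNA had the highest level of the 8 genes, and the mouse with the most had the lowest. KO mice at day 7 showed it too, with -2.09, -2.25 and -1.84 beside 4921, 6190 and 2947 CPM. WT mice at day 7 showed it in part: -2.19, -2.15 and -1.91 stood beside 4188, 4852 and 4013 CPM, so that the mouse with the most was not the lowest. WT mice at day 21 did not show that order, with -1.93, -1.44 and -1.92 beside 4690, 4808 and 4301 CPM. The part of recruited cells in the gene levels was not tested.

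**Figure D4:**
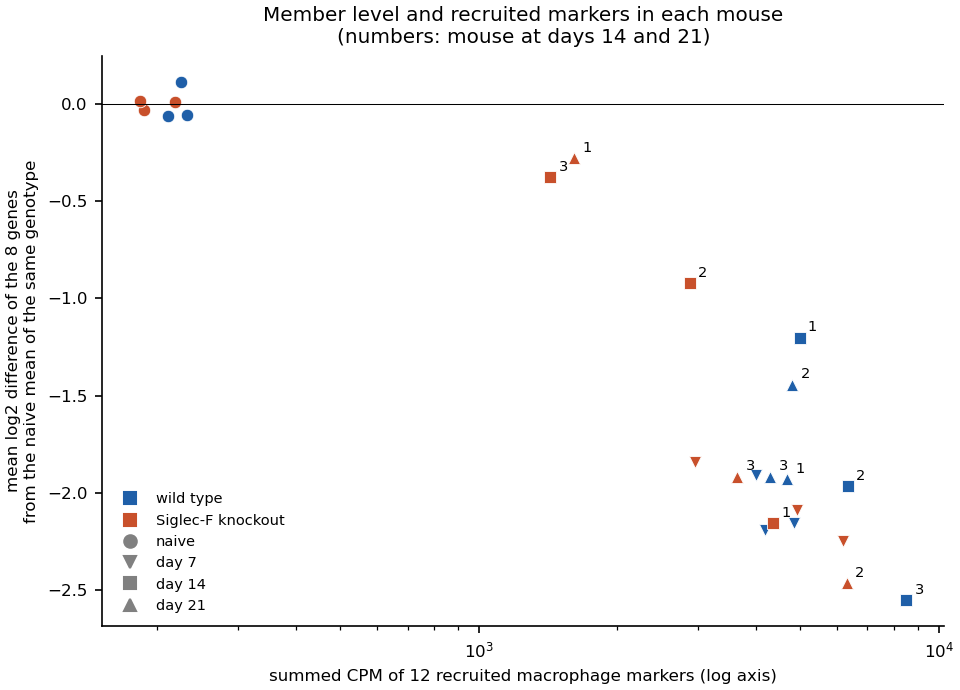
Mean log2 difference of the 8 genes from the naive mean of the same genotype (vertical axis) against the summed CPM of 12 recruited macrophage markers (horizontal log axis), 1 symbol per mouse. Naive mice lie at 184 to 232 CPM near 0; KO mouse 3 of day 14 and KO mouse 1 of day 21 lie at 1431 and 1612 CPM with differences of -0.37 and -0.28.

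Ear1 and Ear2 lie close together on chromosome 14, and GENCODE M21 places Ear1 at 43818765 to 43875517 on the minus strand and Ear2 at 44102654 to 44103534 on the plus strand of GRCm38. The RefSeq start of Ear1 used above lies inside that span. Their counts had fractions in all 24 libraries, unlike those of the other 6 genes. Of all 100-base windows of their transcripts, 23.9% in Ear1 and 13.9% in Ear2 occur in another gene of the family, mainly Ear-ps9 for Ear1 and Ear10 for Ear2. Ear10 reached at most 0.738 CPM in the table, but how the authors' counting split such reads is not given, so the separate levels of Ear1 and Ear2 are uncertain. The other neighbour that shares sequence is Plet1os, antisense to Plet1 (4.76% of windows), which reached at most 0.898 CPM.

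With that limit, the share of Ear1 in the pair was lower after bleomycin in these mice. Ear1 made up 27.5 ± 0.66% (SD, n = 3) of the summed Ear1 and Ear2 counts in naive WT mice and 28.4 ± 1.20% in naive KO mice. At day 7 the share was 12.6 ± 2.18% in WT and 11.9 ± 1.99% in KO mice. It was 7.50 ± 3.79% at day 14 and 9.25 ± 2.30% at day 21 in WT mice, and 12.1 ± 5.70% and 13.9 ± 9.19% in KO mice. Every mouse given bleomycin was below every naive mouse, and the one nearest to them was KO mouse 1 of day 21 at 24.5%. The shares were not tested.

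**Figure D5:**
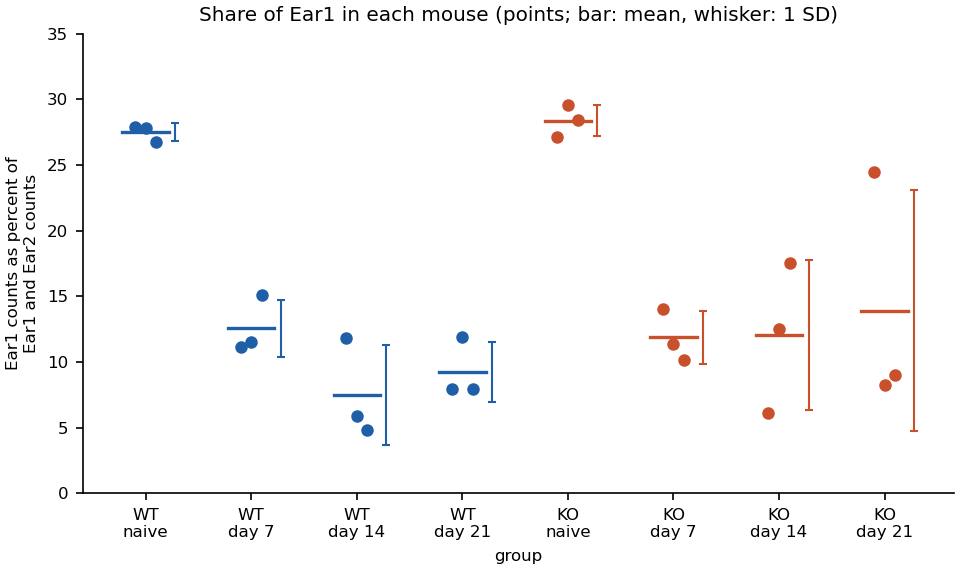
Ear1 counts in percent of the summed Ear1 and Ear2 counts in each mouse (points), with the group mean and 1 SD, for 8 groups of 3 mice. Naive mice of both genotypes lie between 26.8 and 29.6%, and mice given bleomycin between 4.80 and 24.5%.

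Relatives and pathway partners of the 8 genes did not all follow them. Of 28 other genes of resident alveolar macrophages, 17 fell and 3 rose at day 7 in WT mice, and 17 fell and 2 rose in KO mice, with medians of -0.79 and -0.65. Siglecf, the gene named in the knockout label, is among the 28, and Plin2, Ear6 and Ear10 each stand in a further list below. Over all genes tested 15.3% were called lower and 20.2% higher in WT mice at that time, and 14.4% and 19.7% in KO mice. Fabp1, a fatty acid-binding protein gene, had a log2 fold change of -4.51 in WT mice, and Chil3, a chitinase-like lectin gene, of -1.68. The lipoprotein lipase gene Lpl had -0.90, the cholesterol exporter gene Abcg1 -1.53 and the tetraspanin gene Cd9 -0.83. The 3 that rose in WT mice were Cbr2, Fabp5 and Ctsk. By day 21, 9 of the 28 were lower and 8 higher in WT mice, and 3 were lower and 5 higher in KO mice. Over all genes 13.7% were called lower and 18.8% higher in WT mice, and 6.89% and 15% in KO mice. From day 7 to day 21, 7 of the 28 rose in WT mice and 12 rose and 1 fell in KO mice. Over all genes 5.49% were called higher in WT mice, and 7.16% higher and 7.73% lower in KO mice. Chil3 and Lpl were among the 28 genes that rose in both genotypes. Fabp1 stood at 9.78 CPM in WT mice at day 21, against 211 CPM in naive WT mice, and so stayed low with the keratins and Cidec.

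Of 17 other keratin genes 6 were tested, and they moved in both directions. Krt8 and Krt18, the paired keratins of simple epithelia, and Krt7 were higher at day 21 in WT mice, from 0.0718, 0.023 and 0 CPM in naive mice to 3.04, 1.66 and 2.12 CPM. Krt7, Krt8 and Krt18 were also higher in KO mice at days 14 and 21. Over all genes 18.8% were called higher in WT mice at day 21, and 12% and 15% in KO mice at days 14 and 21. In WT mice Krt78 and Krt80 were lower at day 21, as were Krt79 and Krt19, where 13.7% of all genes were called lower. Krt78 went from 3.12 to 0.314 CPM and Krt80 from 11.4 to 5.33 CPM. In KO mice none of the 6 was called lower at day 14 or 21, where 4.84% and 6.89% of all genes were called lower. In KO mice Krt78 was 2.89 CPM naive and 0.505 CPM at day 21, and Krt80 5.80 and 7.02 CPM. The medians of the 6 at day 7 were 0.79 in WT and 0.81 in KO mice.

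Of 15 other carbonic anhydrase genes 9 were tested, with medians of -0.13 in WT and -0.14 in KO mice at day 7. The calls at day 7 in this and the ribonuclease list stand beside the shares over all genes. These were 15.3% lower and 20.2% higher in WT mice, and 14.4% and 19.7% in KO mice. Car13, a cytosolic form, rose in both genotypes at day 7, from 8.10 to 23.8 CPM in WT mice (log2 fold change 1.56) and from 10.1 to 27.5 CPM in KO mice (log2 fold change 1.44). The other calls at day 7 were of genes at low levels. Car11 was lower in both, from 1.20 to 0.171 CPM in WT and from 1.85 to 0.241 CPM in KO mice. In WT mice Car2 and Car6 were higher, from 0.0132 and 0 CPM to 0.471 and 0.217 CPM. Car5b, a mitochondrial form with the highest CPM of the 9, was not called at day 7 (log2 fold change -0.28 in WT mice). Of 16 other ribonuclease genes 8 were tested, with medians of 0.09 and 0.23. At day 7 Ear10 and Rnase6 were lower in both genotypes, Rnaset2a was higher in WT mice, and Rnase4 and Rnaset2b were higher in KO mice. Rnh1, which encodes the ribonuclease inhibitor, had log2 fold changes of 0.14 and 0.06.

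Many lipid droplet genes fell with Cidec at day 7: of 15 tested, 8 were lower and 2 higher in each genotype, with medians of -0.68 in WT and -0.64 in KO mice. Over all genes 15.3% in WT and 14.4% in KO mice were called lower, and 20.2% and 19.7% higher. Plin2, which coats droplets, had a log2 fold change of -0.68 in WT and -0.64 in KO mice, and the triglyceride lipase gene Pnpla2 had -0.92 and -0.67. Mgll, for monoglyceride lipase, had -0.97 and -1.12, and Plin3 -0.12 (not called) and -0.55. The 2 that rose were Lipe, for hormone-sensitive lipase, and Bscl2, for seipin. At day 21 in WT mice Plin2, Pnpla2 and Mgll were no longer called lower, with log2 fold changes of -0.35, -0.14 and -0.07, while Cidec stayed at -2.78. At that time 3 of the 15 were lower in WT mice (Abhd5, Dgat2 and G0s2, at -0.38, -0.83 and -1.73) and 3 higher. In KO mice 5 were lower at day 21 (Abhd5, G0s2, Plin2, Plin3 and Plin4) and 2 higher. Over all genes at day 21, 13.7% in WT and 6.89% in KO mice were called lower, and 18.8% and 15% higher. Plin4 was at low levels, with 1.47 CPM in naive KO mice and 0.0651 CPM at day 21.

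Most other V-ATPase subunit genes were not called lower with Atp6v0d2. Of 19 tested, 1 was lower and 6 were higher in WT mice at day 7, and 3 were lower and 5 higher in KO mice, with a median of 0.04 in both. Over all genes 15.3% were called lower and 20.2% higher in WT mice, and 14.4% and 19.7% in KO mice. Atp6v0c, with the highest CPM, had a log2 fold change of 0.73 in WT and 0.66 in KO mice, and Atp6v1a had 0.36 and 0.38. Atp6ap1 was not called in either, and Atp6v1b2 had -0.10 (not called) in WT and -0.24 in KO mice. Atp6v0d1, the other d subunit, was 320 CPM in naive WT mice and 304 CPM at day 7 (log2 fold change -0.07, adjusted p = 0.56).

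Between genotypes, the genes called in any of these lists were Siglecf and Bhlhe41. Bhlhe41 encodes a transcription factor of resident alveolar macrophages. It went from 143 to 259 and 260 CPM at days 14 and 21 in WT mice and from 274 to 174 and 178 CPM in KO mice, with a difference in response of -1.52 at day 14 (adjusted p = 0.0427) and -1.48 at day 21 (adjusted p = 0.0469). Both calls of Bhlhe41 were lost with most single mice left out: at day 14 it stayed called only without naive WT mouse 2, WT mouse 3 or KO mouse 1 of day 14, and at day 21 only without naive WT mouse 2 or KO mouse 3 of day 21. The adjusted p without a mouse reached 0.159 at day 14 and 0.171 at day 21, and it was 0.0603 and 0.0703 with the replicate block. The compared groups alone gave 0.118 at day 14.

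Likeness between genes was measured on log2 of CPM plus 1. It was the root mean square difference of their group means, each centred on its own mean over the 8 groups. A value of 0 is the same pattern on that scale, where the added 1 makes the changes of genes at low CPM smaller. Among the 8 genes Plet1 and Atp6v0d2 (0.197) and Krt19 and Cidec (0.205) were the nearest pairs, and Car4 and Krt79 were the farthest apart at 1.78. Of 9664 genes with at least 5 CPM in their highest group, Fam129a came nearest to the mean pattern of the 8, at 0.0796, with 527 CPM in naive WT mice and 138 CPM at day 7. It was followed by Fam89a, Park2, Coro6, Adtrp, Ucp3, Cx3cl1 and Cyb561a3, at 0.112 to 0.146.

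Each gene also had a nearest gene of its own. For Atp6v0d2 it was Mertk, a receptor for the uptake of dying cells, at 0.0503, with 248 CPM in naive WT mice and 159, 237 and 243 CPM at days 7, 14 and 21. For Plet1 it was Fam118b (0.0862), for Ear2 Agmo (0.123) and for Cidec Inadl (0.144). For Car4 it was Igf2bp3 (0.156), at 6.32 CPM in KO mice at day 14 and 2.07 CPM in naive WT mice. Krt79 was nearest to Spag11b (0.218), Krt19 to Tppp (0.249) and Ear1 to Cpne5 (0.410). These distances are descriptions over 8 group means from 24 shared libraries.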

How the data were processed

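The deposited table holds expected counts, estimated by the authors as read counts per gene with fractions, in 1 column per mouse, and was used here after rounding to whole numbers. Not given in the sources used here: aligner, counting tool, use of strand. The build mm10, bcl2fastq, DESeq2 1.42.0 and limma 3.58.1 are named per the submitters' processing notes. Whether a column adds up the 2 runs listed for each mouse is not stated; 24 columns of other samples were not used. The 8 genes and all lists were chosen with earlier results of these data known.

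Genes were kept with edgeR 4.0.16 filterByExpr (minimum count 10, minimum total 15), libraries were scaled by TMM, and 1 quasi-likelihood model with 8 group means was fitted in R 4.3.3 (16 residual degrees of freedom, prior 4.43, common biological coefficient of variation 0.21). Calls were made at an adjusted p under 0.05 (Benjamini-Hochberg over the 12634 genes of a comparison). SEs are the log2 fold change over the root of F, and intervals are 95%. The edgeR fit and test were first run on simulated data for 1 of the 16 comparisons, KO against WT mice at day 21. The genes named are the 8, Siglecf, the 4 most abundant tested genes of each list, genes of the lists called between genotypes, and the nearest genes by likeness; other genes were named after their values were seen. Alternatives were DESeq2's size factors, no filter, a replicate block, leaving out Rn45s, limma-voom, DESeq2, the compared groups alone, and leaving out each mouse. Gene positions are from GENCODE M21 on GRCm38 and upstream sequences from RefSeq on GRCm38.p6. Libraries of 1 group differed beyond counting noise in every pair, and the labels number them as separate mice.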

Additional observations from a re-analysis of the deposited data

How the results depend on the processing

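Counts of called genes among the 8 moved most in KO mice. At day 21 against naive, where edgeR called 0, limma-voom called 4, DESeq2 2, and leaving out 1 mouse gave 0 to 5. At day 14 against naive (3 called) leaving out 1 mouse gave 1 to 3, and the compared groups alone gave 4. From day 7 to day 21 (4 called) leaving out 1 mouse gave 2 to 4, and the compared groups alone gave 1. Between genotypes at day 14, and for the difference in response at day 14, DESeq2 called 1 gene, Car4, and leaving out 1 mouse gave 0 to 1. In WT mice leaving out 1 mouse gave 2 to 6 at day 14 (6 called), 3 to 5 at day 21 (5 called) and 1 from day 7 to day 21 (2 called). The compared groups alone gave 6 in WT mice at day 21 against naive. The cause was not tested. Counts at day 7 were 7 in WT mice under all alternatives and 6 to 7 in KO mice. No value of the 8 genes that was called changed sign.

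Over all genes, counts called moved by more than 1.5 times at KO day 21 (2765; 1391 to 3195 over the alternatives that kept all mice), from day 7 to day 21 in KO mice (1880; 426 to 2254), and between genotypes, as at day 14 (17; 3 to 145) and day 21 (12; 3 to 132). Size factors of DESeq2 moved library scales by -0.016 to 0.022 on the log2 scale. Mice with the same number share only a number: their deviations correlated with a median of -0.003 over 84 pairs of libraries, and 8 of 24 libraries correlated best with their own number. With the replicate block the counts among the 8 genes were 7, 6 and 5 in WT and 7, 3 and 0 in KO mice at days 7, 14 and 21, and Ear1 from day 7 to day 21 in KO mice was not called (adjusted p = 0.055). Depth limits little, since every level of the 8 genes rested on at least 124 counts. The spread among mice, estimated for each gene over all 8 groups together, sets the intervals.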
